A study of Mus musculus with 1 sample.

Results

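The genes described here are 47 cell cycle and DNA replication genes, taken by symbol from a list of cyclins, cyclin-dependent kinases (CDKs), replication factors and mitotic genes, among the 54532 Ensembl genes of the deposited table. They were divided into 11 G1 members, 15 S members and 21 mitotic members, a choice made here from the known role of each product. *Ccne1*, *Ccne2*, *E2f1* and *Cdk2*, placed in G1, and *Ccna2*, placed with the mitotic members, could also be counted as S members. RNA-seq was performed on sorted c-kit+ BM cells, that is, bone marrow cells carrying the receptor of stem cell factor, in order to compare *Gadd45g*+/− mice with a myeloproliferative neoplasm (MPN) with Ctrl mice. The data used here are 1 library, that of Ctrl mice of the C57BL/6 strain with the wild-type genotype, and the age and number of these mice are not given in the sources used here. The MPN library was not analysed here, so no difference between the genotypes is given, no p-value is given, and the spread between mice is unknown.

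Cells enter the cycle when D-type cyclins bind CDK4 or CDK6 and the retinoblastoma protein releases the E2F transcription factors. E2F then switches on cyclin E and the genes that license origins, copy DNA and make nucleotides, and in G2 a later set of genes, held down in resting cells by the DREAM complex, builds the spindle and drives mitosis. In bone marrow, committed progenitors divide fast, whereas stem cells and mature granulocytes rarely or never divide.

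Levels are in FPKM, the fragments on a gene scaled to the length of its exons in kilobases and to the size of the library, as deposited. FPKM times the exon length in the GENCODE M21 annotation of GRCm38 was a whole multiple of 1 common step, within 0.01, for 46 of the 47 members, and the multiple was read as the number of fragments. These ran from 298 for *Ccnd1* to 17520 for *Mki67*. The 95% intervals are exact Poisson intervals of these fragments and cover counting error only. *Kif11*, on chromosome 19, gave no whole multiple and has no interval. The sort, per the labels, kept cells without lineage markers and without Sca1. The 10 progenitor markers chosen for the sorted cells all reached 1 FPKM, from 5.22 FPKM for *Cd34* to 781 FPKM for *Elane*, with *Kit*, the gene of c-kit, at 7.17 FPKM. All 9 markers of mature neutrophils, all 6 of erythroid cells and all 7 of B cells did so too. So did all 5 of T cells and all 5 of macrophages, and no marker was listed at 0. In this library 22.2% of all genes and 46.8% of protein-coding genes reached 1 FPKM. The neutrophil list held 12.5% of the summed FPKM and the erythroid list 11.2%, against 0.481% for the progenitor list, 1.11% for B cells, 0.0452% for macrophages and 0.00845% for T cells. Of the recovered fragments, which are not divided by length, these lists held 4.20%, 4.10%, 0.349%, 0.275%, 0.0579% and 0.00732% in the same order. The median marker had 95.5 FPKM in the progenitor list, 2831 FPKM in the neutrophil list and 3468 FPKM in the erythroid list. *Kit* and *Cd34* lay below 8.66 FPKM, the median of protein-coding genes at 1 FPKM or more. The levels below are those of the whole library and cannot be assigned to progenitors. Mature cells that do not divide could lie among those sequenced, and their part in the levels below was not tested. In a bulk library, fewer cells in cycle and less RNA per cycling cell cannot be told apart.

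The promoters are shown first, because their letters were read from the reference sequence and not from the levels. RefSeq promoters of GRCm38.p6, 300 bases long with 250 before the transcription start, were matched by symbol for 39 of the 47 members, 3 of which have 2 promoters. *Ccnd1*, *Ccnd2*, *Ccne2*, *Mcm4*, *Gins1*, *Ccna2*, *Aurkb* and *Tpx2* are named only. The letters searched on both strands were those bound by E2F (TTTGGCGC, TTTCCCGC, TTTCGCGC or TTTGCCGC), the cell cycle homology region or CHR, through which the DREAM complex acts (TTTGAA or TTCGAA), and the box bound by NF-Y (CCAAT). Matches may overlap. A match describes the letters and is not a measured binding site.

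Among S members, 5 of 13 with a promoter held the E2F letters (38.5%), namely *Mcm3*, *Mcm5*, *Mcm6*, *Mcm7* and *Cdc6*. Over all 27025 genes with a promoter the share was 2.605%, and it was 4.91% over the 8506 that reached 1 FPKM. *Cdk2* was the single G1 member of 8 with these letters and *Cdk1* the single mitotic member of 18. The 4 S promoters below are those with the letters before the start, and each shows the 180 bases that end at the last base before it, 5′ to 3′ on the strand of the gene. Capitals mark E2F, CHR and CCAAT letters. The regions are *Mcm5* (chr8:75109329-75109508, forward strand), *Mcm6* (chr1:128359706-128359885, reverse strand), *Mcm7* (chr5:138171884-138172063, reverse strand) and *Cdc6* (chr11:98907971-98908150, forward strand).
Mcm5: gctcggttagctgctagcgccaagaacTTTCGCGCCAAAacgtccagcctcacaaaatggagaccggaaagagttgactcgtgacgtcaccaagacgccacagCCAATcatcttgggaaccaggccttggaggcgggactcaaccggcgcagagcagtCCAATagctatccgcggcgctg
Mcm6: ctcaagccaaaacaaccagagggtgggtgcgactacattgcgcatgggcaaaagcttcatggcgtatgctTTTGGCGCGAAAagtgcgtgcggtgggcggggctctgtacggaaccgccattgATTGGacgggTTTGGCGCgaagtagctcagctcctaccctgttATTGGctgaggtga
Mcm7: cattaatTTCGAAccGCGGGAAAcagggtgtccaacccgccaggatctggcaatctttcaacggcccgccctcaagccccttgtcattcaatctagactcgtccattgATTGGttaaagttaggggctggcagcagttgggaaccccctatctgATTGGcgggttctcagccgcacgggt
Cdc6: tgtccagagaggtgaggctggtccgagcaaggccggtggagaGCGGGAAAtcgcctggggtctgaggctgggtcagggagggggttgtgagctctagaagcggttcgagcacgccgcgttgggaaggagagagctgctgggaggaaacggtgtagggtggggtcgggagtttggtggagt

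Positions are those of the first base of a match, negative before the start. In *Mcm5* the E2F letters occurred on both strands in 1 overlapping block, at −153 and −149, and in *Mcm6* such a block lay at −110 and −106 with a further match at −47. The printed promoter of *Mcm7* had matches at −165, just after a CHR match at −173, and at 17. Its other promoter held CCAAT letters at −47 and no E2F or CHR letters. *Cdc6* had 1 match, at −138, with no CCAAT letters in the 300 bases. Both matches of *Mcm3* lay after the start, at 20 and 39. *Pcna* and *Rrm2*, the S members with the highest levels, held no E2F letters in this window, so the letters did not mark the most abundant S members.

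Among mitotic members, 14 of 18 held the CHR letters (77.8%), against 3 of 13 S members (23.1%) and none of the 8 G1 members, and the share over all genes with a promoter was 21.7% (16.9% of those at 1 FPKM). The CCAAT letters were in 16 of the 18 mitotic promoters (88.9%), in 10 of 13 S promoters (76.9%) and in 4 of 8 G1 promoters (50%), against 41.1% over all genes and 43.2% of those at 1 FPKM. The median GC content was 65.7% for G1, 56.7% for S, 58.3% for mitotic and 52.75% for all promoters, and the part of base composition in these shares was not tested. The 4 mitotic promoters below are those with CHR letters in the 50 bases before the start, in the same layout. The regions are *Cdc20* (chr4:118437344-118437523, reverse strand), *Cdk1* (chr10:69352913-69353092, reverse strand), *Kif11* (chr19:37376202-37376381, forward strand) and *Top2a* (chr11:99024190-99024369, reverse strand).
Cdc20: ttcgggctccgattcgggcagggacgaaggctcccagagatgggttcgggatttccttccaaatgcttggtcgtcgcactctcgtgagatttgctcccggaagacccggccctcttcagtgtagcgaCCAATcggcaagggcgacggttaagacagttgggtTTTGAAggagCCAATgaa
Cdk1: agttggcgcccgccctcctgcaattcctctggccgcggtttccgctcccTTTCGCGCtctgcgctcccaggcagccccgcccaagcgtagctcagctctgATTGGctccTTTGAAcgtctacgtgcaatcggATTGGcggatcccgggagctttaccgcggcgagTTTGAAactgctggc
Kif11: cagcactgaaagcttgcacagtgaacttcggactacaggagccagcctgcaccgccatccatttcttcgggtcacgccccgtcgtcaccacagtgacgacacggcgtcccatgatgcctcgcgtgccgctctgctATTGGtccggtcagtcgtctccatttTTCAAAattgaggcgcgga
Top2a: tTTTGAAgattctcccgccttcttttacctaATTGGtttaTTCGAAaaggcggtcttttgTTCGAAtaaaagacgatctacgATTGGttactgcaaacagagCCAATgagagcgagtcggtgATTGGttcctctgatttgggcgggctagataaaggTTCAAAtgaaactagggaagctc

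In all 4 a CCAAT box precedes the CHR match that lies nearest the start, by 35 bases in *Cdc20*, 33 in *Cdk1*, 26 in *Kif11* and 35 in *Top2a*, counted between first bases. *Top2a* held 4 CHR matches in the printed stretch, and *Cdk1* carried an E2F match upstream of both its CHR matches. After these positions had been seen, the window was narrowed to 50 bases on each side of the start, where 13 of 18 mitotic members kept a CHR match (72.2%), against 1 of 13 S members, *Cdc45* (7.69%), and 6.12% of all genes. In these 13 mitotic promoters the CCAAT letters nearest before the CHR lay 9 to 153 bases away, with a median of 35, and 7 of the 13 distances were from 20 to 40. *Mki67* was the member whose CHR letters lay outside that window, and *Ccnb1*, *Birc5*, *Nusap1* and *Cenpe* had no match in the 300 bases. The levels of those 4, from 8.27 to 62.4 FPKM, lay inside the range of the 14 mitotic members with the letters, from 5.30 to 137 FPKM.

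**Figure D1:**
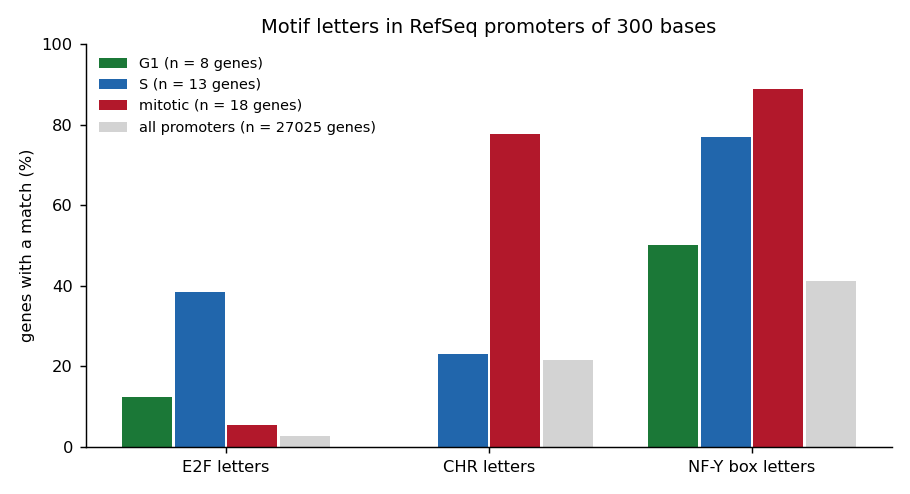
Percentage of genes whose RefSeq promoter of 300 bases holds the E2F, CHR or NF-Y box (CCAAT) letters on either strand, for G1, S and mitotic members and for all genes with a promoter. The CHR bar is at 77.8% for mitotic members and at 21.7% for all genes, the E2F bar at 38.5% for S members and 2.605% for all genes, and no G1 member held CHR letters.

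**Figure D2:**
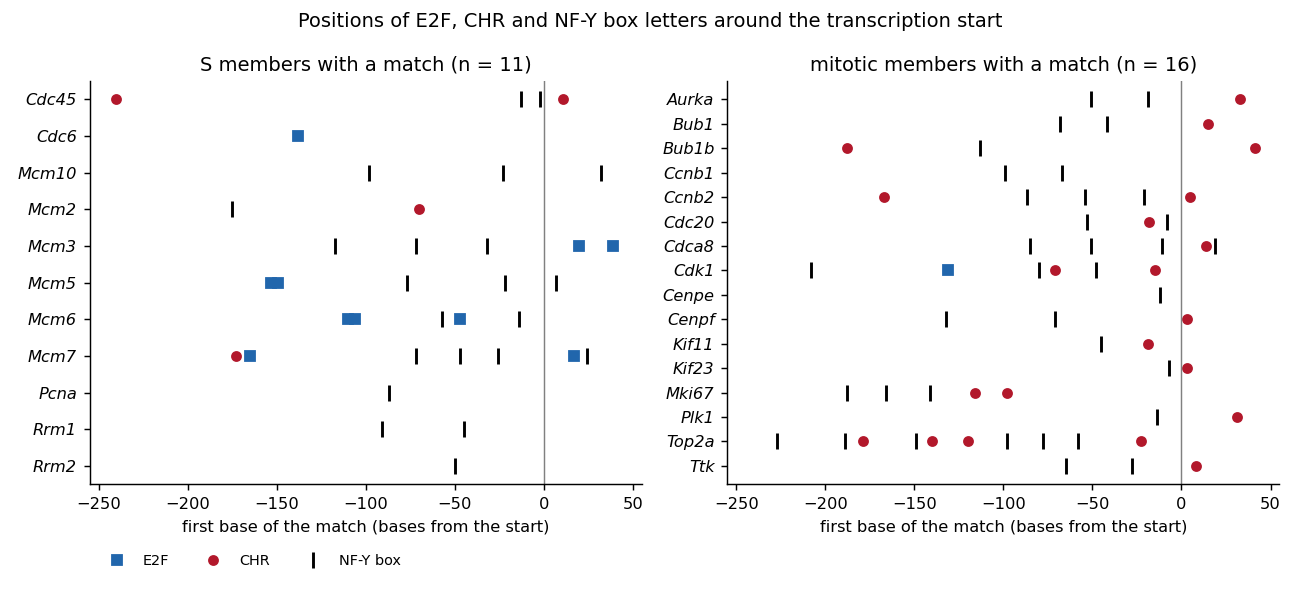
Position of the first base of each match relative to the transcription start (vertical line) in S and mitotic members with at least 1 match, with squares for E2F, circles for CHR and bars for the NF-Y box. In 13 mitotic members a circle lies within 50 bases of the start, with an NF-Y box before it.

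All 47 members reached 1 FPKM in the Ctrl library, where 22.2% of all genes and 46.8% of protein-coding genes did. Of the 47, 18 reached 50 FPKM, while 4.58% of protein-coding genes did. At 10 FPKM 40 members remained and at 100 FPKM 4, and shares over all genes were not calculated at these levels. The median member had 40.03 FPKM, above 87.6% of the protein-coding genes at 1 FPKM or more, whose median was 8.66 FPKM. Together the members took 0.925% of the recovered fragments, 0.142% on G1, 0.316% on S and 0.467% on mitotic members. Levels spanned 47.1-fold, from *Ccnd1* at 4.01 FPKM to *Pcna* at 189 FPKM. When the 47 were ordered by level, the intervals of 29 of the 46 neighbouring pairs overlapped, 15 did not, and 2 pairs could not be compared because they include *Kif11*.

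**Figure D3:**
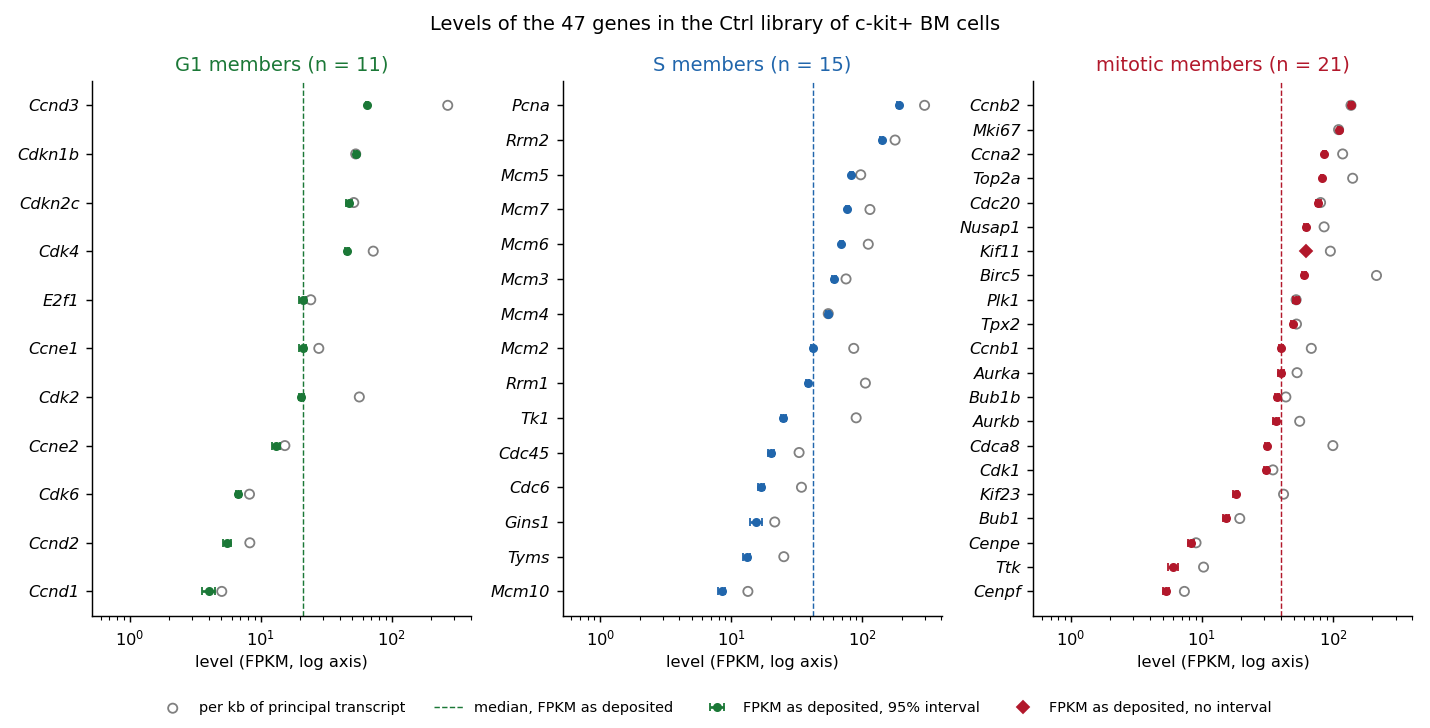
Level of each member in FPKM (log axis), in 1 panel per class, with 95% exact Poisson intervals (counting error only), the class median as a dashed line, and open circles for the level after division by the length of the principal transcript in place of all exon bases. *Pcna*, *Rrm2*, *Ccnb2* and *Mki67* stand above 100 FPKM and *Ccnd1* is lowest, and the open circles of *Ccnd3*, *Birc5*, *Cdca8* and *Tk1* lie more than 3 times to the right of the filled ones.

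Among the D-type cyclins, which sense growth signals in G1, *Ccnd3* was by far the most abundant. It had 64.5 FPKM from 8929 fragments (interval, 63.1 to 65.8), *Ccnd2* had 5.56 FPKM (5.19 to 5.95) and *Ccnd1* had 4.01 FPKM (3.57 to 4.49). *Ccnd3* was 11.6 times *Ccnd2* (interval of the ratio, 10.8 to 12.5) and 16.1 times *Ccnd1* (14.3 to 18.1), and it made up 87.1% of the summed D-type cyclin FPKM. The order was the same under each choice of length, and the ratios grew to 32.4 and 53.0 with principal transcripts, because the 8775 exon bases of *Ccnd3* are 4.15 times its principal transcript.

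The kinase partners of the D-type cyclins were unequal as well. *Cdk4* had 45.7 FPKM (43.9 to 47.6) and *Cdk6* 6.77 FPKM (6.43 to 7.12), a ratio of 6.75 (6.32 to 7.20). As fragments not divided by length the ratio was 1.57, since the exons of *Cdk6* cover 13989 bases and those of *Cdk4* 3249. *Cdk2*, the kinase of cyclins E and A, had 20.4 FPKM (19.5 to 21.3). Its cyclin E partners had 20.9 FPKM for *Ccne1* (19.5 to 22.3) and 13.2 FPKM for *Ccne2* (12.2 to 14.2), a ratio of *Ccne2* to *Ccne1* of 0.631 (0.571 to 0.696). The intervals of *Cdk2*, *Ccne1* and *E2f1* overlapped, with *E2f1*, an activating E2F factor, at 20.9 FPKM (19.6 to 22.2). With principal transcripts *Cdk2* stood apart at 56.6 FPKM, against 27.8 FPKM for *Ccne1* and 24.1 FPKM for *E2f1*.

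The 2 inhibitors among the G1 members were at the upper end of the class. *Cdkn1b*, which encodes p27, had 53.1 FPKM (51.5 to 54.8) and *Cdkn2c*, which encodes the CDK4 and CDK6 inhibitor p18, had 47.2 FPKM (45.2 to 49.4). The interval of *Cdkn2c* overlapped that of *Cdk4*, and the ratio of *Cdkn2c* to *Cdkn1b* was 0.889 (0.842 to 0.939), or 0.525 as fragments not divided by length. With principal transcripts *Cdk4* was higher than both, with 72.3 FPKM against 53.1 FPKM for *Cdkn1b* and 51.4 FPKM for *Cdkn2c*. In the wider list of G1 inhibitors, pocket proteins and E2F factors, 14 of 17 genes were at 1 FPKM or more and the median gene had 9.70 FPKM. Its highest levels were 141 FPKM for *E2f2*, 120.4 FPKM for *Cdkn2d*, which encodes the related inhibitor p19, and 83.4 FPKM for *E2f4*, an E2F factor of resting cells. The lowest was *Cdkn2b* at 0.273 FPKM, from 6 fragments (0.1004 to 0.595).

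Of the S members, *Pcna*, the sliding clamp of DNA polymerases, had the highest level of all 47 genes, with 189 FPKM from 7152 fragments (184 to 193). It was 4.53 times the median of its class. The 6 genes of the MCM2-7 helicase, whose subunits form 1 ring, lay close together, with 82.3 FPKM for *Mcm5*, 76.5 FPKM for *Mcm7*, 69.2 FPKM for *Mcm6*, 60.7 FPKM for *Mcm3*, 54.9 FPKM for *Mcm4* and 41.7 FPKM for *Mcm2*. The highest was 1.98 times the lowest, a spread beyond counting error for these ends, and 2.08 times with principal transcripts. The 4 ring genes with E2F letters had 60.7 to 82.3 FPKM, above *Mcm2*, which lacks the letters in this window, but with principal transcripts *Mcm2* had 86.0 FPKM and *Mcm3* 75.1 FPKM. *Mcm10*, an initiation factor that is not part of the ring, had 8.47 FPKM (7.96 to 9.001), so the median of the ring genes was 7.67 times higher.

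The factors that load and activate the helicase were lower than each of its subunits, also with principal transcripts. *Cdc6*, which loads the ring onto origins, had 16.8 FPKM (15.9 to 17.7). *Cdc45* and *Gins1*, which join the ring in the active helicase, had 20.1 FPKM (18.9 to 21.3) and 15.4 FPKM (13.8 to 17.03), and the interval of *Gins1* overlapped that of *Cdc6*. In the wider list of origin licensing and firing genes all 18 were at or above 1 FPKM and the median was 9.84 FPKM. *Gmnn*, the inhibitor of licensing, was highest at 42.4 FPKM, followed by *Cdt1*, the loader that it binds, at 33.2 FPKM and *Gins4* at 31.1 FPKM, and *Orc4* was lowest at 3.05 FPKM. All 22 genes of the fork and synthesis list were at or above 1 FPKM (median, 16.7 FPKM), led by *Lig1*, the ligase that joins lagging-strand fragments, at 46.0 FPKM, *Dut* at 42.9 FPKM and *Rpa1* at 31.6 FPKM, with *Ung* lowest at 3.19 FPKM.

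Genes of nucleotide supply spread widely. *Rrm2*, the small subunit of ribonucleotide reductase, had 141 FPKM (137 to 144) and *Rrm1*, the large subunit, 38.3 FPKM (37.4 to 39.2). The ratio of 3.67 (3.55 to 3.804) was 1.68 with principal transcripts and 0.924 without division by length, since the 2 genes had 6154 and 6657 fragments. *Tk1*, which salvages thymidine, had 24.9 FPKM (23.8 to 25.96) and *Tyms*, which makes thymidylate, had 13.1 FPKM (12.4 to 13.8), a ratio of 1.90 (1.77 to 2.04) that was 3.57 with principal transcripts. *Tyms* and *Ccne2* were neighbours in the order of levels, with intervals that overlapped.

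Of the mitotic members, *Ccnb2*, a B-type cyclin, had the highest deposited level, and *Ccnb1*, the other B-type cyclin, was at the class median. *Ccnb2* had 137 FPKM (133 to 142), in an interval that overlapped that of *Rrm2*, and *Ccnb1* had 40.3 FPKM (38.8 to 41.9), a ratio of 3.40 (3.23 to 3.58). *Ccna2* had 86.1 FPKM (83.8 to 88.4). Their kinase *Cdk1* was lower, at 30.9 FPKM (29.6 to 32.1). The general markers of dividing cells, *Mki67*, which encodes the chromosome coat protein Ki-67, and *Top2a*, the topoisomerase that untangles chromosomes, had 110.3 FPKM (109 to 112) and 81.8 FPKM (80.3 to 83.3). With principal transcripts the ratio of *Ccnb2* to *Ccnb1* was 2.01, and *Birc5* at 215 FPKM and *Top2a* at 141 FPKM were above *Ccnb2* at 137 FPKM. With the longest transcripts *Birc5* had 61.0 FPKM, below *Ccnb2*, whereas *Top2a* and *Ccnb2* kept these values.

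The polo and Aurora kinases, which drive entry into mitosis and spindle assembly, were closer together. *Plk1* had 52.3 FPKM (49.9 to 54.8), *Aurka*, the kinase of spindle poles, 40.03 FPKM (38.1 to 42.0), and *Aurkb*, the kinase of the chromosomal passenger complex, 36.9 FPKM (35.1 to 38.6). The ratio of *Aurkb* to *Aurka* was 0.921 (0.860 to 0.986), and it was 1.05 with principal transcripts, so their order depended on the gene length used. The other passenger genes had 59.8 FPKM for *Birc5*, which encodes survivin, and 31.3 FPKM for *Cdca8*, which encodes borealin. With principal transcripts these were 215 and 99.8 FPKM, but with the longest transcripts 61.0 and 48.3 FPKM. The principal transcript of *Birc5* has 947 bases, against 3402 exon bases.

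The spindle checkpoint held both high and low genes. *Cdc20*, the target of the checkpoint and activator of the anaphase-promoting complex, had 77.2 FPKM (74.0 to 80.4). *Bub1b* had 37.5 FPKM (36.0 to 39.0), 2.46 times *Bub1* (2.28 to 2.64) at 15.3 FPKM, and *Ttk*, the kinase at the head of the checkpoint, had 6.00 FPKM (5.47 to 6.57). The spindle genes ran from *Nusap1* at 62.4 FPKM and the motor gene *Kif11* at 61.7 FPKM through *Tpx2* at 49.1 FPKM to *Kif23* at 18.04 FPKM. The large centromere proteins were low as well, with 8.27 FPKM for *Cenpe* (7.79 to 8.77) and 5.30 FPKM for *Cenpf* (5.01 to 5.59). *Cenpf* had 1290 fragments over 15433 exon bases. The ratio of *Cenpf* to *Cenpe*, 0.640 (0.591 to 0.694), turned to 1.15 without division by length. *Cenpe* lay above *Ttk* as deposited, but below it with principal transcripts, with 9.01 against 10.3 FPKM.

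All 28 genes of the wider list for mitotic entry and exit were at or above 1 FPKM, and their median was 18.9 FPKM. *Cks2*, a small CDK-binding protein, had 211 FPKM (203 to 220), above *Pcna*, *Ube2c*, the ubiquitin-conjugating enzyme of the anaphase-promoting complex, had 138 FPKM and *Fzr1* had 84.3 FPKM, while *Kif20b* had 3.68 FPKM. All 7 genes for the DREAM complex and mitotic transcription reached 1 FPKM. *Rbbp4* had 36.0 FPKM, *Mybl2*, which encodes B-MYB, 20.8 FPKM (19.8 to 21.9) and *Foxm1*, a transcription factor of G2 genes, 20.8 FPKM (19.9 to 21.8), with overlapping intervals, and *Lin9* was lowest at 3.38 FPKM. Over the 5 wider lists, 89 of 92 genes reached 1 FPKM, against 46.8% of protein-coding genes.

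**Figure D4:**
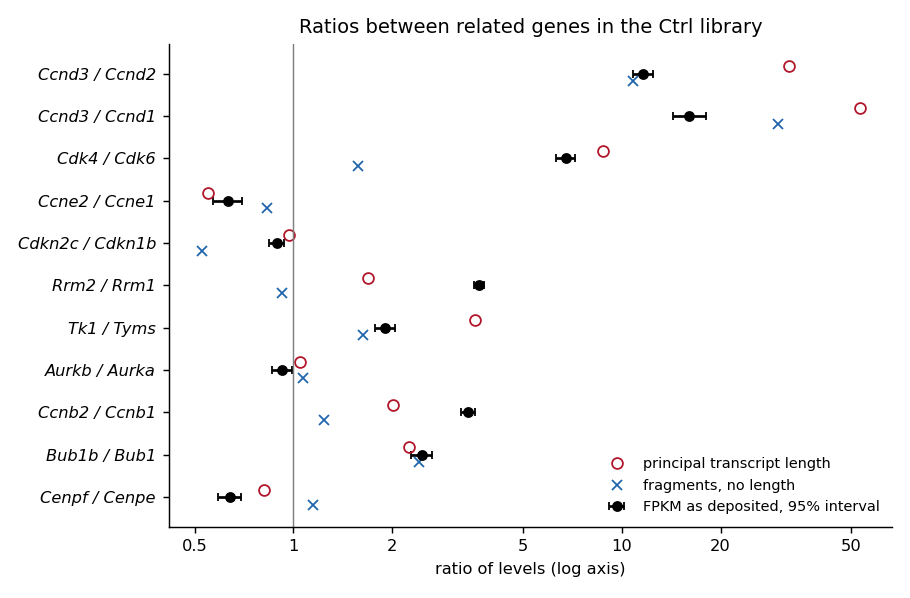
Ratio of the levels of related or partner genes (log axis), as deposited FPKM with 95% exact intervals (filled), with principal transcript lengths (open circles) and as fragments with no length (crosses), with a vertical line at 1. *Ccnd3* exceeds *Ccnd1* and *Ccnd2* by more than 10 times in all 3, and the *Rrm2*, *Aurkb* and *Cenpf* ratios cross 1 in at least 1 of them.

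The median of G1 members was 20.9 FPKM (the level of *Ccne1*), that of S members 41.7 FPKM (*Mcm2*) and that of mitotic members 40.3 FPKM (*Ccnb1*). The intervals of *Mcm2* (40.5 to 42.9) and *Ccnb1* (38.8 to 41.9) overlapped, and the ratio of the S to the mitotic median was 1.03 (0.985 to 1.08). The G1 median was lower, with a ratio of 1.996 for S over G1 (1.86 to 2.15) and 1.93 for mitotic over G1 (1.79 to 2.09), where the intervals are those of the genes at the medians. The classes overlapped throughout, since 4 of 11 G1 members lay above the mitotic median and 4 above the S median. Levels ran from 4.01 to 64.5 FPKM in G1, from 8.47 to 189 FPKM in S and from 5.30 to 137 FPKM in mitotic members.

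The lower G1 median depended on which genes were counted. Without the 16 members that share exon bases with another gene, the ratio to G1 was 1.42 for S and 1.10 for mitotic members. That removes every D-type cyclin, *Cdk4*, *Cdk6*, *Cdk2* and *Ccne2*, so G1 then holds only *Ccne1*, *E2f1*, *Cdkn1b* and *Cdkn2c*. With principal transcripts the ratio to G1 was 3.09 for S. With *Ccne1*, *Ccne2*, *E2f1*, *Cdk2* and *Ccna2* counted as S members, the medians were 45.7 FPKM for G1, 31.6 FPKM for S and 40.2 FPKM for mitotic members, and the ratios of S and mitotic to G1 turned to 0.691 and 0.879. The ratio of S to mitotic members turned to 0.786 in the same way, while with principal transcripts the medians were 86.0 and 55.7 FPKM and the ratio was 1.54, in the order of the deposited values. Genes are not replicates, and no test between classes was made.

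**Figure D5:**
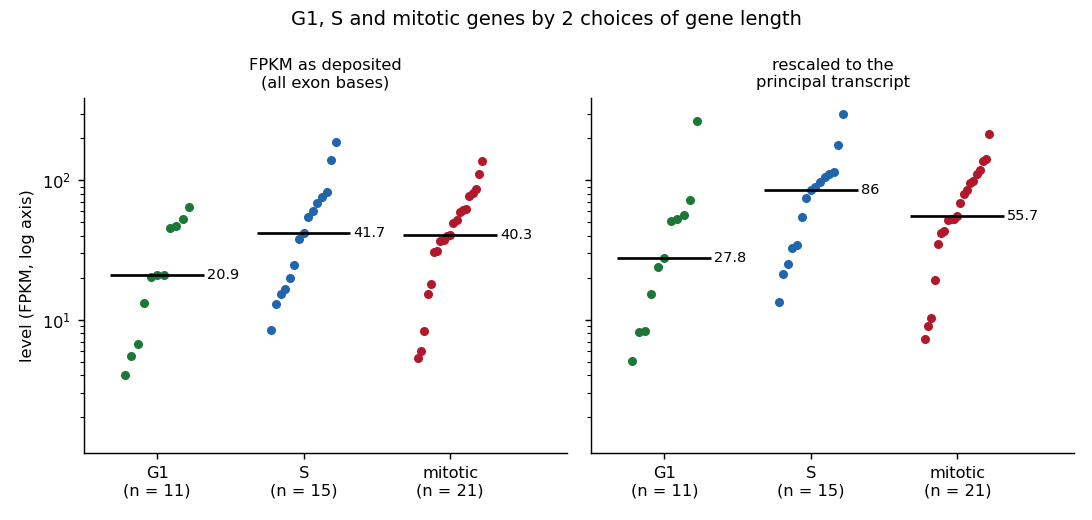
Level of each member (points, FPKM on a log axis) by class, as deposited and after division by the length of the principal transcript, with class medians as lines. As deposited the medians of S and mitotic members, 41.7 and 40.3 FPKM, are alike and that of G1 is 20.9 FPKM, and with principal transcripts they are 86.0, 55.7 and 27.8 FPKM.

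Gene models bear on these levels. The exon bases of a member were over 1.5 times its principal transcript for 20 of 47 members. Levels by exon length and by principal transcript had a Spearman's rho of 0.89 across the 47 genes, which share the library and the fragments. Longer members tended to have lower FPKM, with a rho of −0.35 between level and exon length (n = 47 genes, a description of 1 library in which length is also the divisor). Exon bases of 16 members were shared with another annotated gene on either strand, over 10% of them for *Ccnd1* (23.4%), *Cdk4* (19.7%), *Ccne2* (17.4%), *Mcm7* (12.6%) and *Ccna2* (12.5%), and since the strandedness of the counting is not given in the sources used here, these 5 levels are uncertain. Pseudogenes named after *Pcna* summed to 3.53 FPKM and that of *Ccnb1* to 1.58 FPKM, so reads shared with such copies could not be told apart.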

How the data were processed

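RNA of c-kit+ BM cells from Ctrl mice was analysed as 1 library without replicates. The deposited values are FPKM per Ensembl gene, calculated by the authors, and the submitters' processing notes name HISAT2 2.0.5, featureCounts 1.5.0-p3 and the mm10 build. Annotation and strandedness are not given in the sources used here.

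Symbols, coordinates and exon lengths were taken from GENCODE M21 (GRCm38), which holds 54495 of the 54532 identifiers. Fragments were recovered as FPKM times exon length divided by 1 common step. They were whole within 0.01 for 96.4% of genes above 0 (64.6% on chromosomes 17 to 19) and sum to 17113323. The step corresponds to a smaller total, 15783891, and the source of this gap was not tested. Percentages of recovered fragments refer to the sum of 17113323. Totals over genes include rounded multiples, and *Kif11* by other lengths assumes its GENCODE length. The recovery was tested on simulated data. There the total was set to the sum of the fragments, so the test could not address the gap between the recovered sum and the total of the step. The depth gives the exact Poisson intervals and, for ratios, exact conditional binomial intervals, at 95%. Detection was at 1 FPKM. The principal transcript is the longest with the best APPRIS tag. No comparison between groups was made. The members, lists and alternatives were chosen with earlier results of these data known. All members are reported, with the 3 highest and the lowest gene of each wider list. Alternatives were other lengths, a total without the 10 most abundant genes, other classes, a geometric mean, other minimums and other motif letters, and 3 were added after seeing the data. Calculations used scipy 1.17.1, numpy 2.4.6 and pandas 2.3.3 under Python 3.11.15, and plots matplotlib 3.10.9.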

Additional observations from a re-analysis of the deposited data

How the results depend on the processing

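No paired analysis was possible because 1 library was analysed. The median levels of G1, S and mitotic members, 20.9, 41.7 and 40.3 FPKM, were 27.8, 66.3 and 53.2 FPKM with the longest transcript as length and 27.8, 86.0 and 55.7 FPKM with the principal transcript, which was added after seeing the data. They were 22.8, 45.5 and 44.0 FPKM without the 10 most abundant genes, a factor of 1.09 common to all genes, and 19.3, 39.5 and 36.8 FPKM as geometric means. Without division by length they were 1495, 3592 and 2529 fragments. With *Ccne1*, *Ccne2*, *E2f1*, *Cdk2* and *Ccna2* moved to S, G1 and S were 45.7 and 31.6 FPKM, and the ratios of S and mitotic to G1 reversed to 0.691 and 0.879, by construction. Without the 16 members that share exon bases, also added later, the medians were 34.1, 48.3 and 37.5 FPKM. That of G1 then rests on *Ccne1*, *E2f1*, *Cdkn1b* and *Cdkn2c* only. The ratio of the S to the mitotic median, 1.03, was 1.42 without length, 1.25 and 1.54 with the longest and principal transcript, 0.786 with the moved genes and 1.29 without shared exons.

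All 47 members stayed detected at 0.1 FPKM and at 10 fragments, and 40 did at 10 FPKM. Shares over all genes were not calculated at these minimums. Of the 11 ratios between related genes, 3 reversed without division by length, *Rrm2* to *Rrm1* (0.924), *Aurkb* to *Aurka* (1.07) and *Cenpf* to *Cenpe* (1.15), and *Aurkb* to *Aurka* also reversed with the longest and principal transcripts (1.05 in both). The E2F letters without their first T were in 7 of 13 S promoters, in place of 5. They were also in 2 of 8 G1 and 3 of 18 mitotic promoters, in 10.9% of all and 19.7% of those at 1 FPKM. Depth limits no member here, the fewest fragments being 298, and variation among mice could not be estimated.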
